A study of Mus musculus with 10 samples.

Results

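The genes of HuR and 9 other RNA-binding proteins, most of them known to bind AU-rich elements, were followed in mouse pancreatic tumors. The tumors were grown with or without dextrose in the drinking water. The members were chosen by name and by known RNA-binding role: Elavl1 (the gene of HuR), Zfp36, Zfp36l1, Zfp36l2, Hnrnpd, Khsrp, Tia1, Tial1, Igf2bp2 and Igf2bp3. Each mouse Ensembl gene ID was matched to its symbol, which found all 10 members among the 55359 genes of the table. All 10 passed the filter on low values, which asked for 1 normalized count or more on average.

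RNA was sequenced from 10 orthotopic tumors, made by injecting the KPC K8484 line into the pancreas. The hosts were mice of the C57BL/6 J strain, 10 weeks old, as many male as female per the study's methods. KPC K8484 is a mouse pancreatic cancer cell line, here carrying luciferase, and every tumor of both groups comes from this 1 line. The 5 control (CTRL) mice drank regular water, and the 5 D30 mice drank water with 30% dextrose for 14 days after tumors had been seen by imaging. The labels call the tumors PDX, but name the KPC line as their source.

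An AU-rich element is a stretch of A and U bases in the 3′ untranslated region (3′ UTR) of a messenger RNA, often built from overlapping AUUUA pentamers, and it shortens the life of many cytokine, proto-oncogene and stress-response transcripts. HuR binds such stretches and mostly stabilizes the transcript, chiefly when HuR moves from the nucleus to the cytoplasm. Tristetraprolin (Zfp36) and its relatives bind the same kind of sequence and recruit the deadenylase complex that starts decay. In pancreatic cancer cells HuR is known for protecting transcripts that help cells survive nutrient stress, and Gclc, the catalytic subunit of glutamate-cysteine ligase, is the HuR target named by the study.

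Several of these proteins are encoded by transcripts that hold the motif themselves, so the sites of the members are shown first. The 3′ UTR of each member's principal transcript (GENCODE M21, GRCm38) was searched on the transcript strand for ATTTA, for the heptamer TATTTAT and for the nonamer TTATTTATT, which hold one another and may overlap. Each site below runs 5′ to 3′ along the transcript in DNA letters, with the longest matched motif in capitals. The first 5 are nonamer sites, and the last 2 are the heptamers of Tia1 and Tial1.
Elavl1, chr8:4285788-4285816, minus strand: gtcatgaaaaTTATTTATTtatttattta
Elavl1, chr8:4285750-4285778, minus strand: atttgtttgtTTATTTATTtatttattac
Zfp36, chr7:28376951-28376979, minus strand: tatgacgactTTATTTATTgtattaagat
Zfp36l1, chr12:80108167-80108195, minus strand: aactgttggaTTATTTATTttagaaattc
Zfp36l2, chr17:84184914-84184942, minus strand: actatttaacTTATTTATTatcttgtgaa
Tia1, chr6:86430467-86430495, plus strand: cagatacaatgTATTTATttaaaagattc
Tial1, chr7:128442423-128442451, minus strand: gaaaatgaaaaTATTTATtttaaaaattg

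The Elavl1 3′ UTR of 4218 bases held 17 ATTTA pentamers and 8 nonamers, and both sites shown run on into further ATTTA repeats. Zfp36, Zfp36l1 and Zfp36l2 each held 1 nonamer, with 3, 9 and 5 pentamers. Tia1 and Tial1 held 1 heptamer each and no nonamer. Hnrnpd, Khsrp, Igf2bp2 and Igf2bp3 held 10, 1, 4 and 7 pentamers and no heptamer. Of 16139 mouse 3′ UTRs, 64.9% held an ATTTA, 26.8% a TATTTAT and 7.02% a TTATTTATT. Gclc held 4 pentamers in 1234 bases and no heptamer.

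All members but Igf2bp3 were plainly transcribed in the tumors. Levels were compared between genes as normalized counts per kilobase of merged exons. Zfp36l2 was highest in CTRL tumors at 3811 ± 780 per kilobase (SD, n = 5), and its lowest CTRL tumor, at 2474, was above the highest value of any other member. Zfp36l1 followed at 1387 ± 231 and Khsrp at 1373 ± 353. Hnrnpd stood at 876 ± 153, Tial1 at 699 ± 106 and Igf2bp2 at 565 ± 90.9 per kilobase.

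Tia1 came next at 372 ± 103 per kilobase, Elavl1 at 326 ± 20.6 and Zfp36 at 248 ± 56.8. From Zfp36l1 down to Zfp36, the CTRL ranges of each pair of neighbours in this order overlapped. Igf2bp3, an oncofetal member of its family, stood far below at 4.49 ± 0.897 per kilobase, from 14 to 54 reads a tumor. With the length of the principal transcript in place of all merged exons, Tia1 moved up to 1310 and Elavl1 to 588 per kilobase, so the middle of the order rests on the choice of length.

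**Figure D1:**
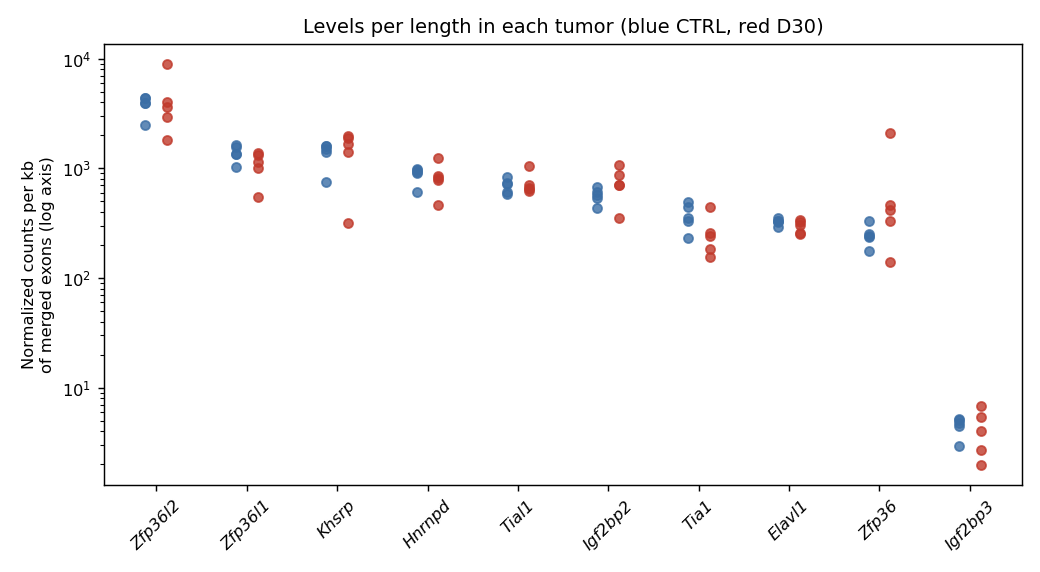
Normalized counts per kilobase of merged exons on a log axis for each member, ordered by CTRL mean, with 1 point for each of the 5 CTRL (blue) and 5 D30 (red) tumors. Zfp36l2 leads at a CTRL mean of 3811 and Igf2bp3 is lowest at 4.49.

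Before the comparison, 3 tumors have to be named, by their columns in the table. In N1 (CTRL) and T4 (D30), transcripts rich in G and C were low and transcripts poor in them were high. Genes were ranked by GC content and cut into 5 equal classes. The median deviation of the highest class minus that of the lowest, here called the GC shift, was −0.74 in N1 and −1.27 in T4, and between 0.053 and 0.51 in the other tumors (log2, 12200 genes). T4 held 841 reads of 4 Y-linked genes, where the other 9 tumors held 0. The labels give no sex, and these counts go against as many male as female hosts among these 10 tumors. T5 (D30) had a read in 20482 genes, the fewest of the 10 tumors, against 23446 to 25912 in the others. T4 or T5 was the highest tumor for 5 of the 10 members and the lowest for 9. Over all 24560 genes tested, T4 was highest in 24.3% and lowest in 22.3%, and T5 in 18.9% and 18.8%, so both stood at the ends of many genes. Results that rest on T4 and T5 are given with and without them.

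None of the 10 members was called different between D30 and CTRL tumors, and in all 10 the groups overlapped. A gene was called at an adjusted p under 0.05 in the fit with limma over 24560 genes, which called 2.76% of genes. Counts of 0 members were also given by edgeR, which called 4.13% of its genes, and by DESeq2, which called 8.17%. No member had an unadjusted p under 0.05, against 17.3% of all genes, and 6.19% of all genes had groups that did not overlap. The log2 fold change (D30 minus CTRL) was positive in 3 members and negative in 7, with a median of −0.12 beside −0.065 over all genes. In counts simulated on these tumors' means and depths, limma recovered 10% of 2-fold changes and 82% of 4-fold changes. A 2-fold change would thus mostly be missed, and the lack of calls does not show a lack of change.

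**Figure D2:**
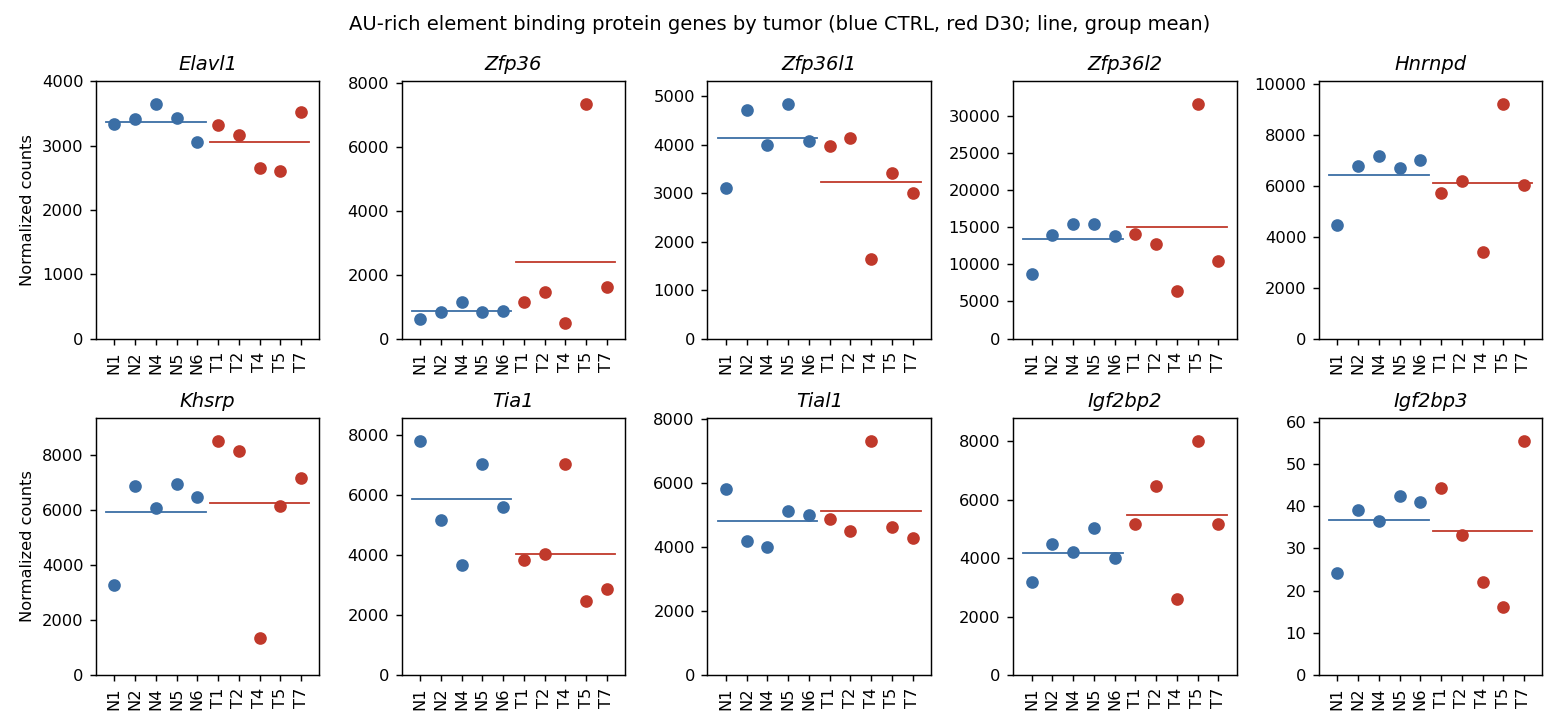
Normalized counts of each member (vertical axis from 0, its own scale per panel) in the 5 CTRL tumors (blue) and 5 D30 tumors (red), with a line at each group mean. The groups overlap in all 10 panels, Elavl1 stays between 2603 and 3643, and T4 or T5 lies at an end of most panels, as with Zfp36 at 7334 in T5 and Khsrp at 1365 in T4.

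Elavl1, which encodes the stabilizing protein HuR, was the steadiest of the members. It stood at 3338, 3413, 3643, 3431 and 3052 normalized counts in CTRL tumors N1, N2, N4, N5 and N6. In D30 tumors T1, T2, T4, T5 and T7 it stood at 3327, 3160, 2654, 2603 and 3523. The lowest values were those of T4 and T5, and the other 3 D30 tumors lay inside the CTRL range. The means were 3376 ± 213 in CTRL and 3054 ± 409 in D30 tumors (SD, n = 5 each), a fold of 0.900 with a 95% interval from 0.710 to 1.14 (log2 fold change −0.15, SE 0.158, limma adjusted p = 0.671; two-sided exact permutation p = 0.190).

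The log2 fold change of Elavl1 without T4 and T5 was −0.016 (SE 0.129, limma adjusted p = 0.962). Its SD on the log2 scale over all tumors was the smallest of the 10 members in both groups, 0.093 in CTRL and 0.20 in D30 tumors. With the GC trend taken out, Tial1 had smaller SDs, 0.119 in CTRL and 0.073 in D30 tumors, against 0.139 and 0.291 for Elavl1. Without T4 and T5, Hnrnpd had a smaller SD in D30 tumors, 0.056 against 0.078 for Elavl1. The values are of total messenger RNA in the tumor, and neither HuR protein nor its place in the cell is measured by them. In bulk tumor, fewer cells of a type and less RNA per cell cannot be told apart.

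The 5 genes that varied most like Elavl1 between tumors were Prpf31, Armc7, Mto1, Sema7a and Pomk. Likeness was the Pearson correlation of deviations from the group means over the 10 tumors, among 12215 genes that averaged 100 normalized counts or more, and ran from 0.92 to 0.95. All 5 were lowest in T4 and T5, as Elavl1 was, Prpf31 at 1246 and 1209 normalized counts against 1473 to 1826 in the other 8 tumors. The correlations thus share the same 2 tumors and are given as a description.

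Zfp36 encodes tristetraprolin, which binds AU-rich elements and promotes decay, and is itself an immediate early gene. CTRL tumors N1, N2, N4, N5 and N6 held 606, 843, 1159, 823 and 872 normalized counts. D30 tumors T1, T2, T4, T5 and T7 held 1154, 1452, 487, 7334 and 1611. T5 stood apart from all others and T4 was the lowest of the 10 tumors, while T2 and T7 lay above every CTRL tumor and T1 just under the highest. The means were 861 ± 197 in CTRL and 2408 ± 2787 in D30 tumors, with a log2 fold change of 0.90 (SE 0.529, 95% interval −0.24 to 2.04, limma adjusted p = 0.413; exact permutation p = 0.190).

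The Zfp36 difference depended on which of these tumors entered. Without T5 the log2 fold change was 0.35 (limma adjusted p = 0.640), and without T4 it was 1.32 (adjusted p = 0.0861). Without both, it was 0.72 (SE 0.199, limma adjusted p = 0.0359), in a fit that called 9.97% of all genes. With the trend over GC content taken out of each tumor, it was 0.90 (adjusted p = 0.334), and 0.65 (adjusted p = 0.0276) when T4 and T5 were also left out, where 11.2% of all genes were called.

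The genes most like Zfp36 were Ndrg1, Aplp1, Zpr1, Jmjd6 and Gys1, with correlations from 0.98 to 0.99. In T5 Ndrg1, a hypoxia-induced gene, stood at 56796 normalized counts against 6905 to 18881 in the other 9 tumors, and Gys1, the muscle-type glycogen synthase, at 10774 against 1332 to 3972. Each of the 5 was highest in T5. The glucose transporter gene Slc2a1 was also highest there, at 30003 against 2324 to 7325.

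RefSeq promoter windows (GRCm38.p6, 250 bases before to 50 after the start) were at hand for 9 of the members and were searched on both strands for the CArG box, the binding sequence of serum response factor in immediate early promoters, for the EGR site GCGNGGGCG and for the cyclic AMP element TGACGTCA. The Zfp36 window held a CArG box at chr7:28379277-28379286, 49 to 58 bases before the start, shown in capitals with 10 bases on either side.
Zfp36 CArG box: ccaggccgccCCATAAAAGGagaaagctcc
It also held 1 EGR site. The Hnrnpd window held a CArG box at its start, and the windows of the other members held none of the 3 motifs. A CArG box was found in 1.63% of 32851 windows, the EGR site in 5.55% and the cyclic AMP element in 1.79%. These are matches of letters and not sites of binding.

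Zfp36l1 and Zfp36l2 encode relatives of tristetraprolin with the same kind of zinc fingers. Zfp36l1 ranged from 3105 to 4832 normalized counts in CTRL and from 1642 (T4) to 4144 in D30 tumors (log2 fold change −0.41, SE 0.251, limma adjusted p = 0.434). Zfp36l2 ranged from 8735 (N1) to 15470 in CTRL and from 6395 (T4) to 31498 (T5) in D30 tumors, with a log2 fold change of −0.016 (SE 0.348, adjusted p = 0.989). T5 was the highest tumor for both Zfp36 and Zfp36l2, by a wide gap, and T4 the lowest for all 3 genes. Leaving out T4 and T5 gave log2 fold changes of −0.16 for Zfp36l1 and −0.098 for Zfp36l2.

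Khsrp encodes KSRP, which brings decay enzymes to AU-rich transcripts, and Hnrnpd encodes AUF1, which promotes decay of many of them. Khsrp stood at 3275, 6873, 6077, 6952 and 6477 normalized counts in N1, N2, N4, N5 and N6. In T1, T2, T4, T5 and T7 it stood at 8494, 8150, 1365, 6129 and 7166. T4 and N1 were the lowest tumors, and T1, T2 and T7 lay above every CTRL tumor. The log2 fold change was −0.11 with all tumors (SE 0.442, limma adjusted p = 0.926) and 0.47 without T4 and T5 (SE 0.225, adjusted p = 0.220), so its sign turned.

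Khsrp had the highest GC content of the members, 57.3% of its principal transcript, and N1 and T4 were the tumors with low GC-rich transcripts. With the GC trend taken out, in a fit that called 3.42% of all genes and 0 members, the log2 values of Khsrp were 11.99 in N1 and 10.97 in T4, still the lowest of the 10 tumors, against 12.37 to 12.95 in the others. Hnrnpd, at 41.7% GC, also had its lowest values in T4 (3414) and N1 (4462) and its highest in T5 (9215). Its log2 fold change was −0.12 (SE 0.248, limma adjusted p = 0.851). Whether the GC shift had a part in these values was not tested beyond that correction.

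**Figure D3:**
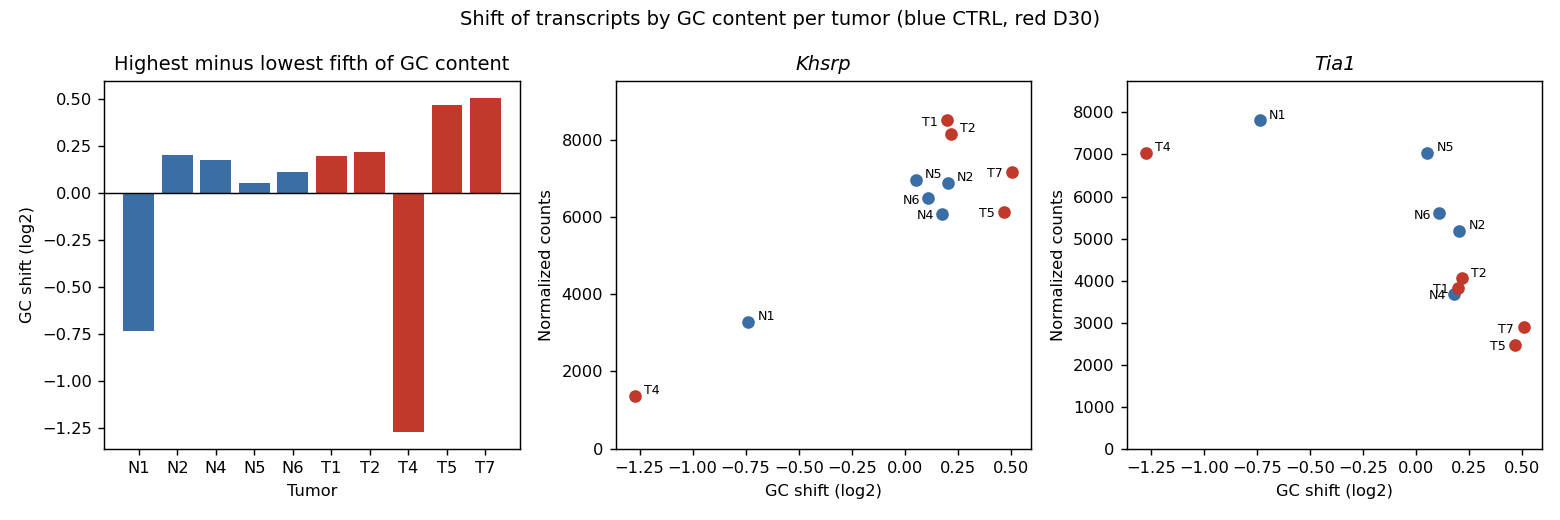
Left, the GC shift of each tumor (median log2 deviation of the highest minus the lowest of 5 equal classes of genes by GC content; blue CTRL, red D30); middle and right, normalized counts of Khsrp and Tia1 against it, 1 point a tumor. N1 (−0.74) and T4 (−1.27) have the negative shifts, the lowest Khsrp (3275 and 1365) and 2 of the 3 highest Tia1 values (7810 and 7047).

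Tia1 and Tial1 encode TIA-1 and TIAR, which bind U-rich and AU-rich stretches, silence translation and help to form stress granules. Tia1 stood at 7810, 5185, 3687, 7041 and 5598 normalized counts in N1, N2, N4, N5 and N6. In T1, T2, T4, T5 and T7 it stood at 3830, 4053, 7047, 2467 and 2892. T5 and T7 lay below every CTRL tumor, T1 and T2 above the lowest CTRL tumor alone, and T4 among the highest values. The log2 fold change was −0.58 (SE 0.287, 95% interval −1.20 to 0.037, limma adjusted p = 0.319), and without T4 it was −0.81 (SE 0.223, adjusted p = 0.0493), in a fit that called 6.43% of all genes.

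Leaving out T5 as well gave −0.67 for Tia1 (limma adjusted p = 0.0750), and taking out the GC trend with all tumors gave −0.49 (SE 0.195, adjusted p = 0.192). Tia1, at 41.2% GC, was the member with the lowest GC content. Tial1, at 41.3%, ranged from 4016 to 5808 in CTRL and from 4275 to 7312 (T4) in D30 tumors, with a log2 fold change of 0.070 (SE 0.193, 95% interval −0.35 to 0.49, adjusted p = 0.890). With the GC trend taken out, T4 lay among the other tumors for Tial1, at 12.31 on the log2 scale against 12.03 to 12.43. The Tia1 gene overlaps another gene model on the same strand, Gm44790, so its reads may not all be its own.

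Igf2bp2 and Igf2bp3 belong to the family of IGF2 mRNA-binding proteins, which bind and mostly protect their target transcripts. Igf2bp2 stood at 3191, 4485, 4212, 5022 and 4006 normalized counts in N1, N2, N4, N5 and N6. In T1, T2, T4, T5 and T7 it stood at 5183, 6489, 2592, 8011 and 5192. All D30 tumors but T4, the lowest of the 10, lay above the CTRL tumors. The log2 fold change was 0.32 (SE 0.269, limma adjusted p = 0.594), and 0.56 without T4 (SE 0.176, adjusted p = 0.0769).

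Igf2bp3 had 16.0 to 55.4 normalized counts in D30 and 24.2 to 42.5 in CTRL tumors, with a log2 fold change of −0.20 (SE 0.403, limma adjusted p = 0.842). The 95% interval ran from −1.07 to 0.67.

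**Figure D4:**
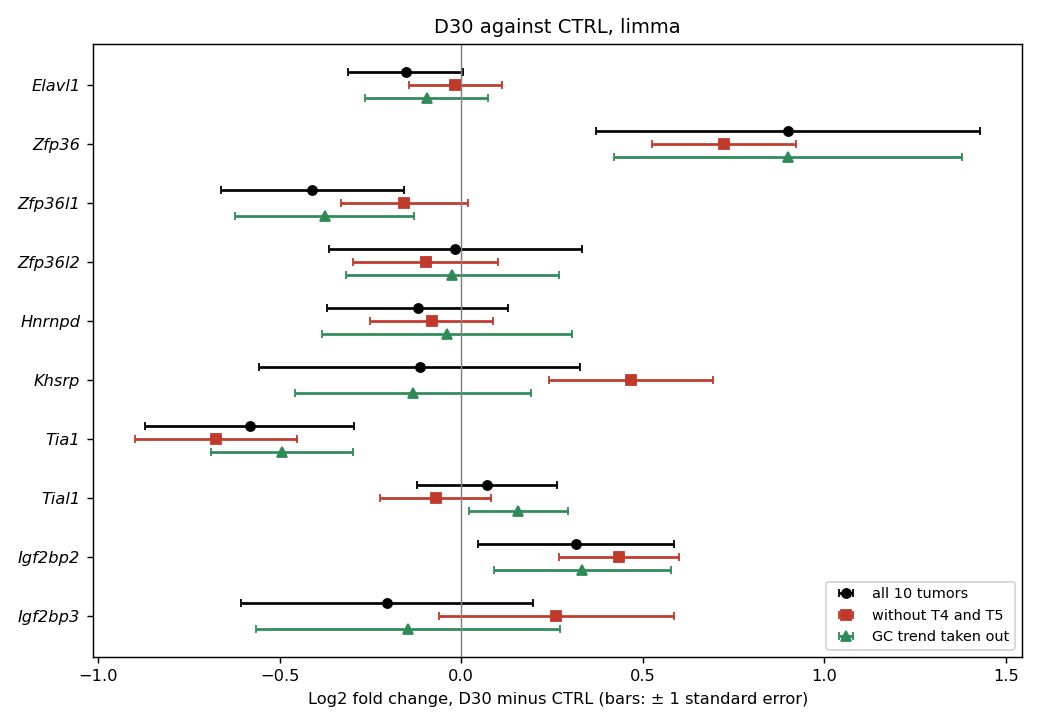
Log2 fold change of each member, D30 minus CTRL, from limma with ± 1 standard error, for all 10 tumors (black circles), without T4 and T5 (red squares) and with the GC trend taken out (green triangles). Zfp36 is positive in all 3 (0.90, 0.72 and 0.90), Tia1 is negative in all 3 (−0.58, −0.67 and −0.49), and Khsrp changes sign without T4 and T5.

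The spread among D30 tumors was wider than among CTRL tumors in all 10 members, with a median SD of 0.60 against 0.30 on the log2 scale. The same held for 92.1% of the 12215 genes that averaged 100 or more, so the width is shared with most genes. Without T4 and T5, the SD among the D30 tumors was below that of the CTRL tumors in 9 members, and above it in Igf2bp3. T4 or T5 lay at an end of the range in most members, so leaving both out favours a smaller SD. The same share over all genes was not counted, and nothing is concluded from it.

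Gclc, the HuR target, was lower in D30 tumors. CTRL tumors N1, N2, N4, N5 and N6 held 13048, 14989, 10848, 19414 and 13596 normalized counts. D30 tumors T1, T2, T4, T5 and T7 held 6842, 6805, 7555, 7990 and 6315. Every D30 tumor was below every CTRL tumor, T4 and T5 included. The mean fell from 14379 ± 3185 to 7101 ± 665, a fold of 0.501 with a 95% interval from 0.380 to 0.661 (log2 fold change −0.996, SE 0.185, limma adjusted p = 0.0127; exact permutation p = 0.00794, the smallest that 5 against 5 can give). Leaving out T4 and T5 gave −1.09 (adjusted p = 0.00226). This decrease in Gclc was known when the gene was chosen.

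Among 38 listed transcripts that HuR is known to bind, 1 rose (Tnf) and 1 fell (Gclc), where the fit called 1.40% of all genes higher and 1.36% lower. The list's median log2 fold change was 0.17, with 23 positive values. An unadjusted limma p under 0.05 was reached by 9 of the 38, beside 17.3% of all genes. Of these, 8 had positive values, beside 7.79% of all genes, and 1 (Gclc) had a negative value. Tnf, the cytokine that gave AU-rich decay its classic example, stood at 36.3 to 72.2 normalized counts in CTRL and 97.3 to 211 in D30 tumors, without overlap (log2 fold change 1.54, SE 0.331, limma adjusted p = 0.0256). Without T4 and T5, 4 of the 38 were called higher (Tnf, Fos, Myc and Slc2a1), where that fit called 5.09% of all genes higher, and 3 lower (Gclc, Hif1a and Dck), where it called 4.87% lower; Myc, Hif1a and Dck are named after their values were seen.

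The list of tristetraprolin targets held 22 cytokine, early and other genes, of which 20 were tested and several are HuR targets too. Of the 20, 17 had positive values, where 45.3% of all genes did, and the median was 0.76. An unadjusted p under 0.05 was reached by 7, all with positive values, beside 7.79% of all genes, but only Tnf was called. The proto-oncogene Fos stood at 301 to 979 normalized counts in CTRL and at 1841, 1515, 670, 7057 and 1638 in T1, T2, T4, T5 and T7 (log2 fold change 1.84, SE 0.506, limma adjusted p = 0.0739; without T4 and T5 1.69, adjusted p = 0.00314). Il23a, a cytokine subunit, had a log2 fold change of 1.68 (adjusted p = 0.0764).

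The summed level of the tristetraprolin targets was 101437 normalized counts in T5, against 31305 to 37344 in the other D30 tumors and 19584 to 34059 in CTRL tumors. Once T4 and T5 were left out, the median was 0.16, with 11 of 19 values positive and 4 genes called higher (Tnf, Il23a, Fos and Myc). T5, where Zfp36 was highest, held high Fos but the lowest Tnf (97.3) and Il23a (29.8) of the D30 tumors. On the same list, Cxcl2 (8064), Ptgs2 (1635), Il1b (514) and Il6 (221) were highest in T5, and Cxcl1 (211) was lowest there. These further genes are named after their values were seen. Whether the level of Zfp36 had a part in any of them was not tested. Markers of neutrophils, a source of several of these cytokines, had positive log2 fold changes in 10 of 10, with none called, and summed to 859 to 4491 in CTRL and 1397 to 17659 (T5) in D30 tumors. Macrophage markers went the other way, with negative values in 9 of 10. The part of either cell type in these values was not tested.

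**Figure D5:**
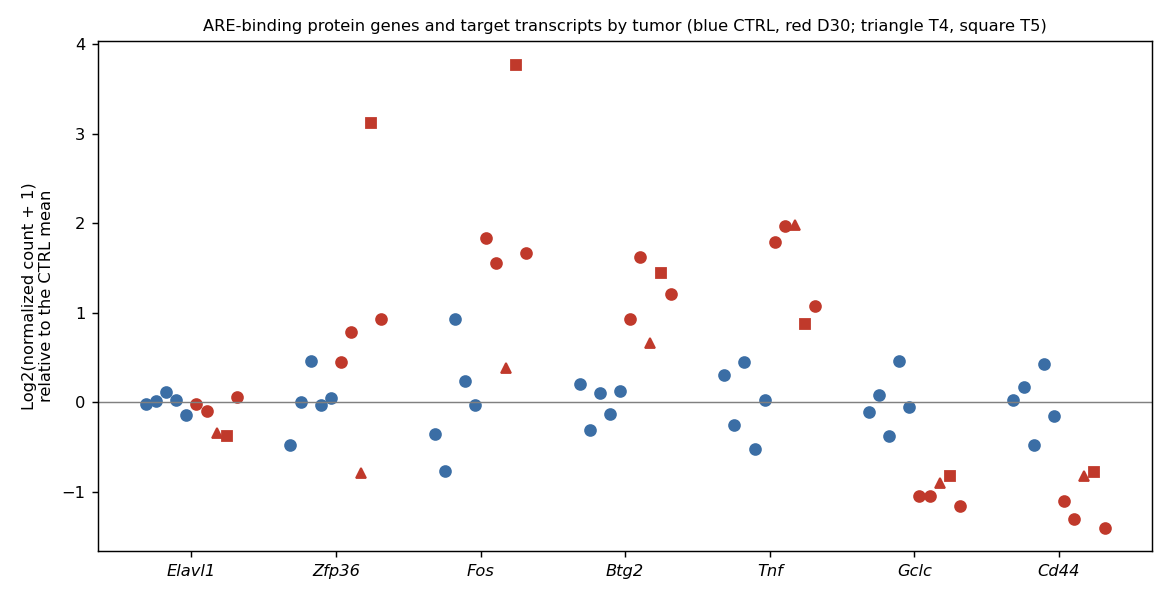
Log2 of the normalized count plus 1, relative to the CTRL mean of each gene, in each CTRL (blue) and D30 (red) tumor, with T4 as a triangle and T5 as a square. Btg2 and Tnf are higher, and Gclc and Cd44 lower, in all 5 D30 tumors than in any CTRL tumor, while Elavl1 stays near 0 and Zfp36 and Fos spread widely.

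Of 7 tested transcripts on a list of 9 known to be bound by IGF2BP proteins, Cd44, a cell-surface hyaluronan receptor, fell, and no other was called. It ranged from 15072 to 28269 normalized counts in CTRL and from 7942 to 12224 in D30 tumors, without overlap (log2 fold change −1.08, SE 0.212, limma adjusted p = 0.0166). The list's median was −0.36, with 3 values positive. Hmga2 and H19 had log2 fold changes of 0.57 and −1.74 and were not called.

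The decay machinery that the decay-promoting members recruit was measured by its own genes. Of 18 deadenylation genes, which shorten the poly(A) tail, 1 rose and none fell. This was Btg2, an antiproliferative cofactor of the deadenylase and itself an immediate early gene, at 870 to 1247 normalized counts in CTRL and 1711 to 3318 in D30 tumors (log2 fold change 1.18, SE 0.210, limma adjusted p = 0.0103; without T4 and T5 1.26). The list's median was −0.055, beside −0.065 over all genes. Among 15 immediate early genes Btg2 was likewise the only 1 called, 13 of the 15 values were positive and the median was 0.46, with T5 highest in the sum. Leaving out T4 and T5 gave a median of 0.30 and 3 genes called higher, Btg2 and Fos among them, and 4 were called when the GC trend was also taken out.

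Neither the 16 decapping genes nor the 14 tested exosome genes held a call, with medians of −0.066 and 0.12. The decapping cofactor Dcp1b had the smallest unadjusted p among them (log2 fold change 0.64, limma adjusted p = 0.198), with every D30 tumor above every CTRL tumor. The 23 genes for HuR transport and modification, such as nuclear export factors and the kinases that phosphorylate HuR, had a median of −0.021 and no call, Mapkapk3, a kinase that acts on tristetraprolin family proteins, coming nearest at 1.44 (adjusted p = 0.0669). Leaving out T4 and T5 called Mapkapk3 higher and Cdk5 lower, with the GC trend taken out or not; Cdk5 is named after its values were seen. The 15 stress granule genes had a median of −0.17 and no call, with Caprin1 at −0.44 (adjusted p = 0.223).

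Of 23 other proteins that bind AU-rich or U-rich sequence, none was called, and the median was 0.11. Leaving out T4 and T5 called 1 of them lower (Qk). With the GC trend also taken out, 2 were called higher and 1 lower (Fxr1, Zc3h12a and Qk), where 11.2% of all genes were called. Qk and Zc3h12a are named after their values were seen. Fxr1 and Ybx1, which encode translational regulators, had D30 values above every CTRL value, at 1.31-fold and 1.32-fold (limma adjusted p = 0.216 and 0.258). Celf2 had a log2 fold change of −0.60 (adjusted p = 0.249). Of the members' close relatives, the neuronal Elavl2 and Elavl4 did not pass the filter, and Elavl3, Igf2bp1 and Zfp36l3 were not called. Igf2bp1, at 480 to 1452 normalized counts, was well above Igf2bp3.

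Genes were also grouped by the number of TATTTAT heptamers in the 3′ UTR. The median log2 fold change was −0.049 in 11818 genes with none, −0.095 in 2839 with 1, −0.11 in 926 with 2 and −0.11 in 556 with 3 or more. The share called was 3.58%, 3.31%, 3.02% and 2.88%. The median 3′ UTR length rose from 682 to 3153 bases over these classes, so heptamers and length cannot be told apart here. The medians come from the fit with the GC trend left in, and GC content was not compared over the classes. Its part in these values was not tested.

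Marker genes of the cell types a pancreatic tumor can hold were also counted. Tumor epithelium markers had positive log2 fold changes in 9 of 10, none called, and summed to 263502 to 391775 normalized counts in CTRL and 406030 to 597706 in D30 tumors. Epcam was the only 1 of these 10 at 0 in any tumor. Fibroblast markers were negative in 10 of 10 and macrophage markers in 9 of 10, with medians of −0.86 and −0.72 and 0 and 1 called lower. Without T4 and T5, 5 macrophage markers were called lower, where that fit called 4.87% of all genes lower. With the GC trend also taken out, 8 were called lower, where 11.2% of all genes were called in either direction. Every other cell type held at most 1 call in each direction in the first of these fits and at most 2 in the second. Endothelial, T cell, B cell and adipocyte markers had medians of −0.68, −1.04, −1.40 and −0.15, with 1 endothelial marker and none of the others called. Acinar markers had negative values in 8 of 9 tested, with a median of −4.46 and none called. They summed to 288 to 60294 in CTRL and 149 to 5569 in D30 tumors. The highest sums were those of N6 (60294) and N2 (28104), and the other CTRL tumors reached 3127 at most. Of the 10 acinar genes, 7 were at 0 in some tumor. The part of cell makeup in the members' levels was not tested.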

How the data were processed

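Total RNA of 10 tumors was made into strand-specific libraries (NEBNext Ultra II Directional) and sequenced. Per the labels and the study's methods, the authors used CASAVA, FastQC, Trim Galore, STAR 2.7.0e and DESeq2. The labels name the mouse build GRCm39, the methods a human build, and the table holds mouse gene IDs; the study's list of software also names RSEM, with no statement of which step made this table, so the counts may be rounded estimates, and the annotation release is not given in the sources used here. The deposited signal is the authors' count per gene divided by a DESeq2 size factor. Whole reads were recovered from it (100% of values whole within 0.02), 29192261 to 42122304 a tumor. Counting error is largest for Igf2bp3, with 14 to 54 reads a tumor. The authors' table has columns N1, N2, N4, N5 and N6 (CTRL) and T1, T2, T4, T5 and T7 (D30), and the labels number the tumors otherwise; separate mice are the replicates.

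The test was limma 3.58.1 (R 4.3.3) with a mean-variance trend on log2(normalized count + 1), for genes with a mean of at least 1, so fold changes of low genes are understated. P-values were adjusted by Benjamini-Hochberg over 24560 genes and called under 0.05. Exact permutation tests (SciPy 1.17.1) were two-sided. Alternatives were edgeR 4.0.16 and DESeq2 1.42.0 on the recovered reads, other scalings, pseudocounts and filters, and leaving out tumors. Added after seeing the data were a correction for GC content (a value for 99.0% of tested genes), list medians without T4 and T5, and the principal transcript's length. Symbols came from GENCODE M21 (94.1% of genes named). The scripts were tested on simulated data.

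The members and lists were chosen with earlier results of these data known. Named besides the members were Gclc, in each list every called gene (up to 8) and the 3 with the smallest p, and the 5 genes most like Elavl1 and Zfp36; not all are printed. Of the members, 7 overlap a gene model on the opposite strand; the counting's strand setting is not given in the sources used here, so reads of both strands may be mixed.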

Additional observations from a re-analysis of the deposited data

Results flagged for a closer look

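In 5 of 22 groups of 5 tumors (10 members and Gclc in CTRL and in D30), 1 tumor lay far from the other 4. Its gap to the nearest value exceeded 0.71 of the group's range, which chance gives in about 1 of 20 groups of normally distributed values. The gaps were taken on normalized counts, which need not be normal, and not on the log2 scale of the tests. On that scale the flags can differ, for Zfp36 too. T5 was the distant tumor for Zfp36 in D30, at 7334 normalized counts with a gap of 0.836 of the range. T4 was the distant tumor for Tial1 in D30, at 7312 with 0.797. N1 was the distant, lowest CTRL tumor for Zfp36l2 (8735, gap 0.753), Hnrnpd (4462, gap 0.829) and Khsrp (3275, gap 0.762). The 5 values are not independent, since N1 accounts for 3 of them, and N1 and T4 are the tumors with the negative GC shift (−0.74 and −1.27). The part of that shift in these values was not tested beyond the correction for GC content, under which N1 stayed lowest of the CTRL tumors in Zfp36l2 (13.28 on the log2 scale), Hnrnpd (11.78) and Khsrp (11.99). With the correction, the log2 SD among CTRL tumors went from 0.341 to 0.241 in Zfp36l2 and from 0.457 to 0.291 in Khsrp. In Hnrnpd it went from 0.287 to 0.452.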

How the results depend on the processing

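No paired analysis was possible because the columns' numbers (N1, N2, N4, N5, N6 and T1, T2, T4, T5, T7) are not the replicate numbers of the labels. Of 230 member values over 23 alternatives, 202 kept direction and side of the threshold, 3 passed it and 25 turned in sign, none of the latter called; the cause was not tested for any. Calls over all genes went from 678 to 1833 (DESeq2), 2418 (without T4 and T5) and 2688 (GC trend taken out as well), and 279 to 1573 when 1 tumor was left out (279 without N2, 340 without N5, 332 without N6, 433 without T7, 1573 without T4). Member calls went from 0 to 1 without T4 (Tia1), without T4 and T5 (Zfp36) and with the GC trend also taken out (Zfp36), and ranged from 0 to 1 when 1 tumor was left out. Signs turned for Zfp36l2 (0.029 with upper-quartile scaling, 0.18 and 0.16 with edgeR, 0.16 with DESeq2, −0.33 to 0.24 with 1 tumor left out, positive without N2, N4, N5, N6, T4 or T7), Khsrp (0.091 and 0.078 with edgeR, 0.078 with DESeq2, −0.32 to 0.37 with 1 tumor left out, positive without T4, 0.47 without T4 and T5, 0.33 with the GC trend also out), Tial1 (−0.15 with library-size scaling, −0.065 to 0.14 with 1 tumor left out, negative without T4, and −0.070 without T4 and T5), Igf2bp3 (−0.41 to 0.024 with 1 tumor left out, positive without T5, 0.26 without T4 and T5, 0.36 with the GC trend also out), Hnrnpd (−0.28 to 0.073 with 1 tumor left out, positive without T4, 0.10 with the GC trend out and without T4 and T5) and Elavl1 (0.084 under the last). Library-size scaling moved the median of all genes from −0.065 to −0.27, and with it the list medians of other AU-rich binding genes (−0.12), deadenylation (−0.28), decapping (−0.29), exosome (−0.10), HuR transport (−0.24), HuR targets (−0.058) and stress granules (−0.39). The deadenylation median was also 0.097 with edgeR, 0.084 with DESeq2, −0.097 to 0.029 with 1 tumor left out, 0.050 without T4 and T5, −0.0045 with the GC trend out and 0.12 with both. Without T4 and T5, and with the GC trend also out, the medians were 0.50 and 0.42 for the close relatives and 0.12 and 0.091 for stress granules; with both, HuR transport was at 0.10 and tristetraprolin targets at 0.077. The IGF2BP targets stood at 0.054 with edgeR. Per kilobase of the principal transcript, CTRL levels became 588 (Elavl1), 308 (Zfp36), 1310 (Tia1), 1084 (Tial1), 1073 (Igf2bp2) and 8.44 (Igf2bp3). Gclc was called in 22 of 23 alternatives, the exception being without N2 (adjusted p = 0.0501), Btg2 in 23, Cd44 in 21 (0.0644 without N2 and 0.0529 without N5) and Tnf in 18, losing the call without N2, N5, N6, T1 or T2 (up to 0.0892). Fos was called in 4: DESeq2, without T4, without T4 and T5, and with the GC trend also out.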
